A study of Mus musculus with 2 samples.

Results

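Wt1 and 9 other genes that mark visceral mesothelium were examined for differentially methylated regions between 2 libraries of mouse adipose progenitors. The genes were Wt1, Upk3b, Msln, Krt19, Krt8, Krt18, Gpm6a, Lrrn4, Upk1b and Bnc1. A region belonged to a member when it overlapped the RefSeq gene body extended by 50 kb on both sides. By this rule 33 distinct regions of the authors' 34139 were found, and 9 of the 10 members had at least 1. Of all 21887 protein-coding genes, 68.5% had a region within the same distance, and the members' count is read against that background. The members were chosen with earlier results of these data known, so their counts here and below are not independent evidence. Negative regions lay near 7 members (background 58.6%) and positive regions near 5 (background 38.1%). Krt8 and Krt18 share a positive region, which counts for both.

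The PDGFRα+ library was made from progenitors that carry PDGFRα (CD140a), and the CD137+ library from progenitors that carry CD137. Per the labels both groups are C57BL/6 adipose progenitors, magnetically sorted from subcutaneous or visceral fat, given an adipogenic cocktail and treated with dexamethasone (DEX), a synthetic glucocorticoid. The labels do not say which depot either library came from, nor the age or sex of the mice or how many were pooled. Genomic DNA was treated with bisulfite, which leaves methylated cytosines unchanged, and sequenced. With 1 library per group there is no spread between replicates to compare with, and the values are described without p-values. The authors gave a signed score per region, which is not a methylation level, and did not define its sign in the list. The list's title names the PDGFRα+ library before the CD137+ library. Only if the score was taken in that order would negative values stand for less methylation in PDGFRα+ cells. Over the whole list 67.4% of regions were negative, the median width was 112 bp and the median absolute score was 49.4. Read depth per library and per region is unknown. Expression was not measured here, so the labelled cell type was not checked against marker levels.

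Mesothelium is the flat epithelium that lines the body cavities and covers the organs in them, including visceral fat depots. It is not found on subcutaneous fat. Wt1 encodes a zinc finger transcription factor of the coelomic epithelium and the mesenchyme derived from it, and in adipose tissue its expression is associated with visceral rather than subcutaneous depots. The other members encode surface proteins (Upk3b, Upk1b, Msln, Gpm6a, Lrrn4), keratins of simple epithelia (Krt8, Krt18, Krt19) and a zinc finger factor (Bnc1).

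Wt1 held 19 of the 33 regions, 8 positive and 11 negative, and the other 9 members together held 14. The gene lies at chr2:105126529-105173614 (mm10) and is 47.1 kb long. Its regions amounted to 12.9 per 100 kb of window, against a median of 0.955 per 100 kb over all protein-coding genes. Only 112 protein-coding genes, or 0.512%, had as many regions within 50 kb or more, where the median gene had 1 (quartiles 0 and 3). By density, 36 genes (0.164%) were level with Wt1 or above it. Wt1, like the other members, was chosen with earlier results of these data known, so its rank is not independent evidence. No other protein-coding gene reached into the Wt1 window. Each library is DNA from many cells, so a change in methylation within a cell type and a change in the mixture of cell types cannot be told apart.

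**Figure D1:**
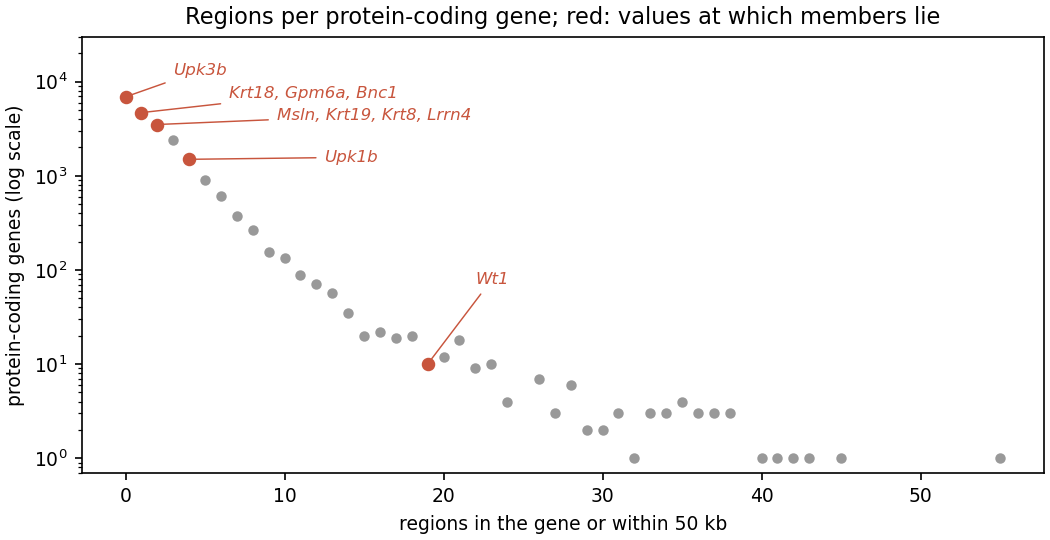
Number of protein-coding genes (vertical axis, log scale) at each number of regions in the gene or within 50 kb (horizontal axis). Red points mark the values at which the 10 members lie: Wt1 stands at 19, Upk1b at 4 and the other members between 0 and 2.

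At the median, the regions at Wt1 were also stronger and wider than those of the list. Single regions varied, from 26.5 to 463 in absolute score and from 72 to 682 bp in width. The absolute scores at Wt1 had a median of 71.0, and 8 of the 19 (42.1%) reached 100, against 15.5% of all regions. The median width was 238 bp, and 7 were at least 300 bp wide, against 10.04% of the list. Scores rose with width over the list (Spearman's rho 0.65 across 34139 regions, which are not independent replicates). Per base, the Wt1 regions had a median absolute score of 0.422, close to the list's 0.430.

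The strongest region of any member lay inside Wt1 and was positive. It spanned 682 bp at chr2:105132927-105133608, starting 6.40 kb from the lower-coordinate end of the gene, and scored 463. In the whole list it ranked 117 by absolute score. It was the only positive region of the 6 in the gene body. The other 5 scored -58.3, -56.4, -158, -26.5 and -35.0 in order along the gene. The region that scored -158 (184 bp) had the largest absolute score per base of all member regions, at 0.860. The second strongest Wt1 region lay 4.90 kb beyond the upper-coordinate end, at chr2:105178511-105179033, and scored -288 over 523 bp.

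Below the gene, 8 regions lay within Wt1os, the antisense noncoding gene whose annotated end is 18 bp from that of Wt1. Of these 5 were positive and 3 negative. From the far end towards Wt1, the first scored 32.8 and the next 3 scored -34.2, -51.2 and -71.0. The last 4 were all positive and lay together within 7.79 kb, with scores of 108, 161, 176 and 47.7. Each was 414 to 494 bp wide. The list gives no strand or gene, so these regions cannot be assigned to the noncoding gene rather than to Wt1. Beyond the upper end of Wt1 the 4 more distant regions scored 81.2, 101.4, -32.6 and -109.7, at 26.7 to 39.7 kb from the gene. Just outside the window, at 50.7 kb from Wt1, a region scored 108.

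The signs thus alternated in 8 runs along the window, the longest of which was 5 negative regions over 37.6 kb from inside the gene to beyond its upper end. Negative regions outnumbered positive ones (57.9% negative, 95% Wilson interval 36.3 to 76.9, which covers counting error only), but positive regions were wider. Their median width was 418 bp against 161 bp for negative ones, and they covered 2998 bp against 2197 bp. Of the 8 regions with an absolute score of at least 100, 5 were positive and 3 negative (37.5% negative, Wilson interval 13.7 to 69.4). In the whole list 67.2% of such regions were negative, a share inside that interval.

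**Figure D2:**
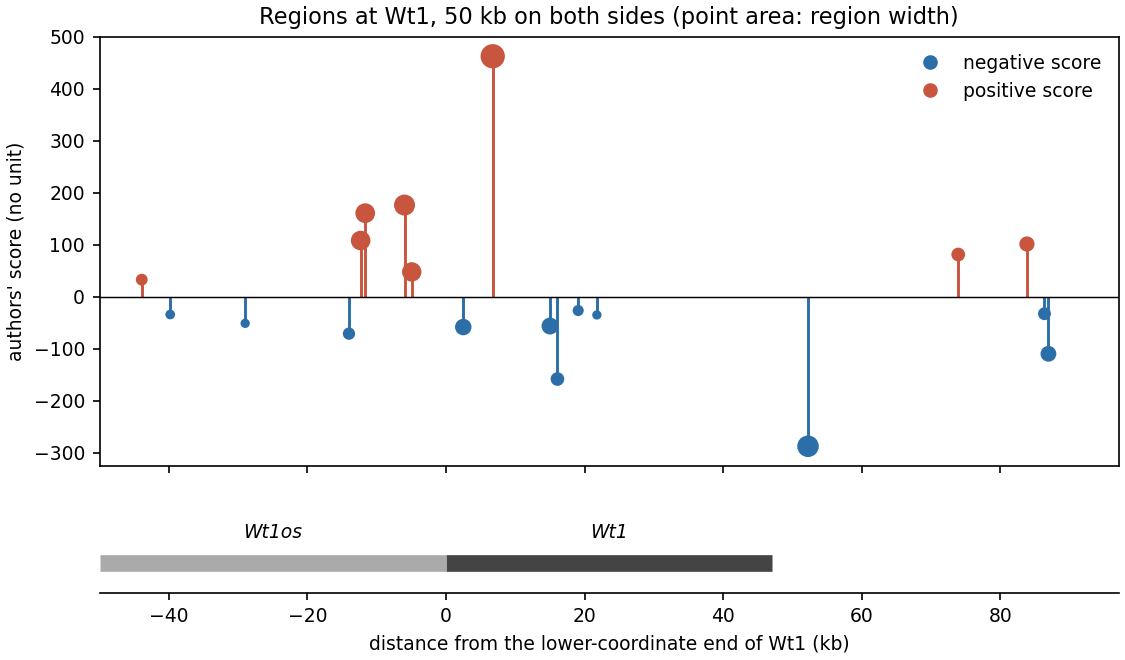
Authors' score (vertical axis, no unit) of the 19 regions at Wt1 against distance from the gene's lower-coordinate end in kb, with point area proportional to region width and the spans of Wt1os and Wt1 drawn below. A group of 4 wide positive regions lies within Wt1os close to Wt1, the highest point (463) lies just inside Wt1, and the lowest (-288) just beyond its other end.

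No listed region covered the place where Wt1 and Wt1os meet. The nearest began 2.35 kb inside Wt1 (score -58.3), and on the other side the nearest ended 4.74 kb away (score 47.7). The sequence shown here is the first 50 bases of Wt1os from the RefSeq promoter table (GRCm38.p6, minus strand, chr2:105126461-105126510), which end 18 bp below Wt1. Capitals mark CpG dinucleotides, the main sites of DNA methylation in mammals, and this stretch holds 6.
Wt1os: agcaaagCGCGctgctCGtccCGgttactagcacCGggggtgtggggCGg

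Among the surface protein genes, Lrrn4 stood out by score. Lrrn4, which encodes a leucine-rich repeat membrane protein of mesothelial cells, had 2 regions, both negative. The stronger scored -251 over 432 bp at chr2:132884719-132885150, inside the annotated gene (chr2:132866686-132894010). The gene's start in the RefSeq promoter table lies within that span, and the region was 3.86 kb upstream of it. The other scored -94.0, lay 45.0 kb from the gene and fell within its neighbour Fermt1. Outside Wt1, the region at Lrrn4 was the only member region with an absolute score of at least 100. Members with such a region therefore numbered 2 of 10, against 24.8% of protein-coding genes.

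Upk1b, which encodes a tetraspanin of the uroplakin family, had 4 regions, none with an absolute score of 100. The region inside the gene (73 bp, chr16:38773329-38773401) began 147 bp from the lower-coordinate end and scored -59.3. The other 3 scored -24.5, -46.4 and 19.8 at 5.15, 42.8 and 48.1 kb from the gene, and the nearest of them lay within B4galt4. The score of 19.8 was the smallest in absolute value of all member regions. Upk3b, another uroplakin gene much used as a mesothelial marker, was the only member with no region within 50 kb. Its nearest lay 92.5 kb away and scored 59.2.

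Gpm6a, which encodes a membrane glycoprotein, is the longest member at 281 kb and had 1 region in its body, 92 bp wide, which scored -32.5. It lay 69.5 kb downstream of the nearer of the gene's 2 listed starts. Msln encodes the surface glycoprotein mesothelin. Its body and the 5 kb around it were free of regions, and its 2 regions lay 15.2 and 29.1 kb above the gene and scored 52.5 and -88.5, the second within Haghl. The 50 kb window of Msln touches 9 other protein-coding genes.

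The keratin genes, which are only 3.81 to 7.63 kb long, had regions near them but none inside. Krt8 and Krt18 encode the paired keratins of simple epithelia and lie 23.9 kb apart on chromosome 15. They shared a positive region of 83 bp (score 53.8), and Krt8 had a second positive region of 214 bp (score 92.5). Both lay within the neighbouring keratin gene Krt78. The stronger of them was 52.4 kb from Krt18 and so just outside its window. Krt19, on chromosome 11, had 2 negative regions with scores of -34.3 and -66.5. The first lay within Krt15, 8.96 kb from Krt19, and the second within Krt9, 47.1 kb away.

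Bnc1, which encodes the zinc finger protein basonuclin 1, had 1 region. It spanned 136 bp at chr7:81973875-81974010 inside the gene (chr7:81966657-81992299), 18.3 kb downstream of the listed start, and scored -86.5.

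**Figure D3:**
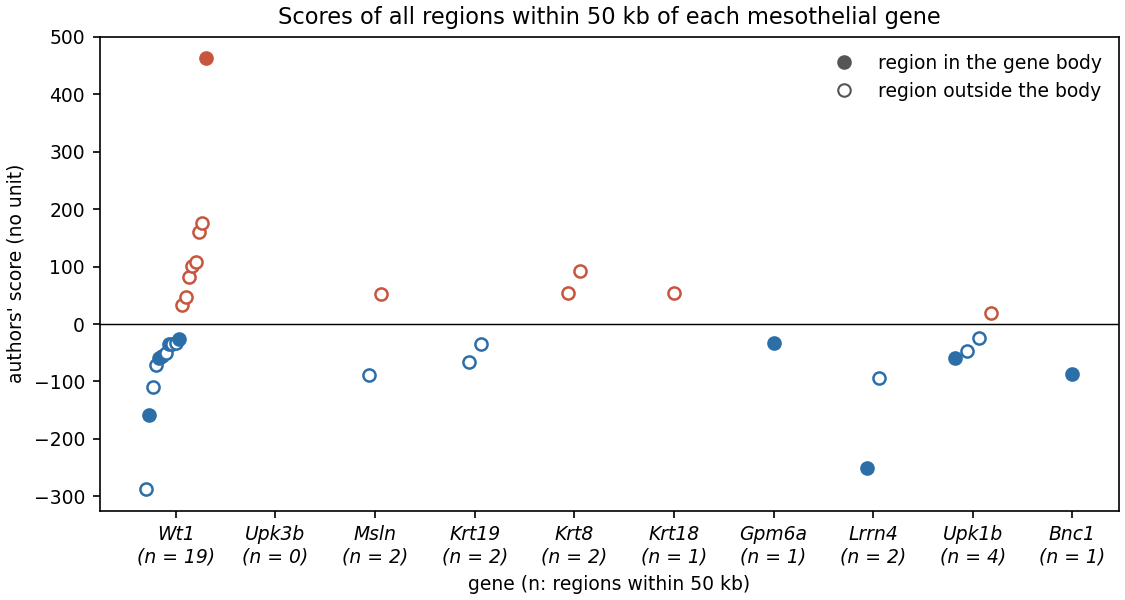
Authors' score (vertical axis, no unit) of every region within 50 kb of each member, with filled points for regions in the gene body and open points for regions outside it. Wt1 spans -288 to 463, the region in the Lrrn4 body stands at -251, and all other points outside Wt1 lie between -94.0 and 92.5.

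The regions inside the members' gene bodies were compared with those in other gene bodies. Of the 10 regions inside a member's own gene, 9 were negative (90%, Wilson interval 59.6 to 98.2), and the exception was the strongest one, at Wt1. Of these 10, 6 lay in Wt1 alone. Of all 17444 regions in protein-coding gene bodies, 66.8% were negative, a share inside the members' interval. The members with a body region were Wt1, Gpm6a, Lrrn4, Upk1b and Bnc1, that is 5 of 10, against 28.9% of protein-coding genes. These 5 were the longest members, at 25.6 to 281 kb, and the other 5 were 3.81 to 7.63 kb long. The background was not matched on gene length, and the part of length was not tested. Of the 10 members, 5 held a negative region in the body (23% of all protein-coding genes) and 1, Wt1, a positive one (14.1%). Among protein-coding genes that have a body region at all, 79.7% held a negative and 49% a positive one, and the members' counts are read against these shares. A body region with an absolute score of at least 100 was found in 2 members, Wt1 and Lrrn4 (background 9.12%). The same 5 had a region within 5 kb, against 35.1%. Of the 23 regions outside the members' bodies, 12 were negative. Over the whole 50 kb windows 21 of 33 regions were negative (63.6%, Wilson interval 46.6 to 77.8), close to the list's 67.4%. By gene, 4 members had only negative regions, 2 had only positive regions and 3 had both. The members with only positive regions were Krt8 and Krt18, and the only region of Krt18 is shared with Krt8, so they are not separate cases. Among protein-coding genes 30.4% had only negative and 9.91% only positive regions.

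Leaving out Wt1, the 14 remaining regions amounted to 11.5 per Mb of window, against 129 per Mb at Wt1, and 10 of the 14 were negative. The median over all protein-coding genes was 0.955 per 100 kb, a smaller unit. The 14 regions had a median width of 95.5 bp and a median absolute score of 56.6, near those of the list. Of these, 4 lay in the member itself, 7 in another protein-coding gene and 3 in none.

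None of the 7 promoter windows that RefSeq lists for 6 of the members (250 bases before to 50 after a gene start) overlapped a region. Such an overlap was rare over all protein-coding promoter windows, at 0.903% of 21263. For Wt1, Msln, Krt19 and Upk1b no promoter window was listed, so theirs could not be examined. The 250 bases before the starts of Lrrn4 and Bnc1, which hold the strongest gene-body regions outside Wt1, and of Upk3b, which had none, are shown to compare their CpG content, with CpG in capitals. They come from the RefSeq table (GRCm38.p6), at chr2:132880863-132881112 on the minus strand for Lrrn4, chr7:81992300-81992549 on the minus strand for Bnc1 and chr5:136038246-136038495 on the plus strand for Upk3b.
Lrrn4: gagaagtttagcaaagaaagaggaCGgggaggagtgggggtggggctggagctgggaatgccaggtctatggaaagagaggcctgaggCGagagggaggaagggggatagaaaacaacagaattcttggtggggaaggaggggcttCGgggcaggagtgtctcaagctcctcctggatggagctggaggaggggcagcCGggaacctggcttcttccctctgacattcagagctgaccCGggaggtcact
Bnc1: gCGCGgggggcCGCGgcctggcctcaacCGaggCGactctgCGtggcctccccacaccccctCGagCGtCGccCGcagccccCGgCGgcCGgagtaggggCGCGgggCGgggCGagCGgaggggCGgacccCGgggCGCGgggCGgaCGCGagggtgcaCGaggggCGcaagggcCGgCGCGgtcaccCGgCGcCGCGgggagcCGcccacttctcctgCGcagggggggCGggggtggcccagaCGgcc
Upk3b: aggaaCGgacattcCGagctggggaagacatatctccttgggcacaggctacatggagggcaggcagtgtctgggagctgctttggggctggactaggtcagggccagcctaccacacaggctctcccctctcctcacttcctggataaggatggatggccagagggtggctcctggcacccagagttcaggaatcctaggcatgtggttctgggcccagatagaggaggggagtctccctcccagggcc

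The Bnc1 stretch holds 39 CpG, above the upper quartile of 19 over protein-coding windows. Lrrn4 has 5 and Upk3b 2, under the median of 10. A CG is found in 93.4% of the protein-coding stretches, read on both strands alike because CG is its own reverse complement. None of these starts held a listed region. With an overlap at only 0.903% of protein-coding promoter windows, this absence cannot be related to CpG content.

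Genes that act with Wt1 or beside it in coelomic and visceral mesenchyme were examined next. All 16 of these regulators had a region within 50 kb (background 68.5%), with 110 regions in all, 58.2% of them negative (48.8 to 67.0). In 10 of the 16 a region of absolute score 100 or more lay in the gene or within 5 kb, against 10.8% of protein-coding genes. The list was drawn up with the strong scores at Osr1 already known, so this count is not independent evidence. By gene, 6 had only negative regions, 2 only positive regions and 8 both. Osr1, a zinc finger factor of intermediate and lateral mesoderm, had 7 regions within 50 kb, all positive (strongest 1484). Twist1, a mesenchymal basic helix-loop-helix factor, had 11, all positive, the strongest within 5 kb at 648. Tcf21, a basic helix-loop-helix factor of epicardium and visceral mesenchyme, had 4 of 5 positive, with a score of 458 over 1187 bp within 5 kb of the gene. Sox9, a chondrogenic and epicardial factor, had 3 of 4 positive (strongest 349).

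In the other direction, Nr2f2, which encodes the orphan nuclear receptor COUP-TFII, had 13 of 20 negative regions. All 10 within 5 kb were negative, the strongest at -1160 over 1621 bp. Pawr, whose product binds the zinc fingers of WT1, had 13 regions, all negative (strongest -436). Wtap and Wtip, which encode WT1-interacting proteins, had 1 region each, at -49.6 and -33.0.

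Further mesothelial genes had regions in 14 of 18 (77.8%), against the background of 68.5%. In 6 of the 18 a region within 5 kb reached an absolute score of 100, against 10.8% of protein-coding genes and 2 of the 10 members. This list was also chosen with earlier results of these data known, so the count is not independent evidence. Rspo1, which encodes a secreted Wnt agonist, had 222 as its strongest, and Podxl, a sialomucin gene, had 198. Cav1, the gene of caveolin 1, reached -120, Cdh1 (E-cadherin) -108, Ezr (ezrin) -102 and Ildr2 -100.03. A region of any score lay in the gene or within 5 kb in 10 of the 18, against 35.1% of protein-coding genes. Muc16, Calb2, Cldn15, Pkhd1l1, Slpi, Efemp1, Aldh1a2 and Thbd had none there. How specific the listed genes are to mesothelium was not tested. The paralogue of Bnc1, Bnc2, had 13 regions within 50 kb, of which 10 were positive. The strongest of the 13 was negative (-250) and lay more than 5 kb from the gene. In Bnc2 or within 5 kb of it, 9 of 10 regions were positive, and the strongest scored 71.7. The only region of Bnc1, in its gene body, was negative. The remaining uroplakin and simple epithelial keratin genes had regions in 6 of 8 (75%), near the background of 68.5%. Within 5 kb the only one with an absolute score of 100 or more was at Upk3a (115). That is 1 of the 8 genes, against 10.8% of protein-coding genes. They too were chosen with earlier results of these data known, so the counts are not independent evidence.

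Markers of other cell types that sorted adipose fractions can carry along were set beside the members. Endothelial genes had regions within 50 kb in 9 of 12 (75%) and blood cell genes in 7 of 12 (58.3%), against the background of 68.5%. A region of absolute score of at least 100 lay within 5 kb of 6 of the 12 endothelial genes and 1 of the 12 blood cell genes. The shares to set beside these are 10.8% of protein-coding genes and 2 of the 10 members. Both lists were chosen with earlier results of these data known, so the counts are not independent evidence. The regions of the endothelial list were 62.3% negative (48.8 to 74.1) and those of the blood cell list 69.0% negative (50.8 to 82.7). These intervals overlap that of the members, but they cover counting error only and take neighbouring regions as independent. Runx1 had 16 regions within 50 kb, and Kdr and Erg 14 each, all fewer than the 19 at Wt1. Among the Wt1-linked regulators, however, Nr2f2 had 20. These counts are not scaled to the length of the window. The strongest scores within 5 kb were 286 at Runx1, a transcription factor of blood cell formation, and -369 at Kdr, the main VEGF receptor gene. The other endothelial genes that reached an absolute score of 100 there were Tek (163), Erg (-156), Vwf (-136), Eng (-115) and Cdh5 (-102). No test of a difference between lists was made, and the part of other cell types in the member regions was not tested.

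**Figure D4:**
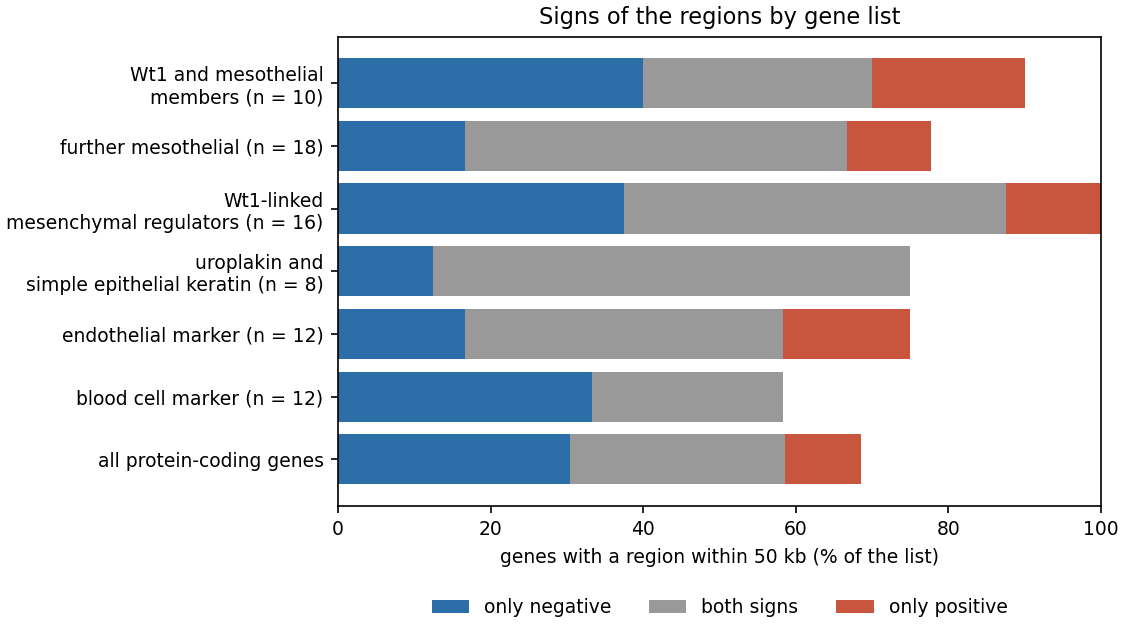
Share of the genes in each list (horizontal axis, %) with only negative regions, both signs or only positive regions within 50 kb, with all protein-coding genes in the last bar. The members stand at 90% with a region, the Wt1-linked regulators at 100%, and all protein-coding genes at 68.5%.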

How the data were processed

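The authors deposited 1 list of regions with a signed score for the comparison of 2 whole-genome bisulfite libraries. Per the submitters' processing notes, positions refer to mm10. What the score measures, which aligner and caller made it and at which thresholds is not given in the sources used here, and depth is unknown. The score deposited by the authors therefore served only to describe, rank and filter regions. It also means that no coverage filter, level or test of a region could be had. Positions count from 1, taking the list as BED, and 0 regions overlapped each other.

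Gene spans and promoter sequences came from RefSeq tables of GRCm38.p6 (21887 protein-coding genes), and all list symbols were matched. An overlap of 1 bp counted. Intervals on shares are 95% Wilson intervals, which cover counting error only and take regions as independent. Overlap counting was tested on simulated data. Python 3.11.15, pandas 2.3.3, numpy 2.4.6 and scipy 1.17.1 were used. The members and the 5 comparison lists were chosen with earlier results of these data known. From each of these lists up to 6 genes were named, those with the largest absolute score of at least 100 within 5 kb, and others named were chosen after their values were seen. Alternatives were windows of 0, 5 and 100 kb, an absolute score of at least 100, whole containment and a width of at least 100 bp.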

Additional observations from a re-analysis of the deposited data

How the results depend on the processing

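Across 12 results and 6 alternatives, 45 of 72 values were classed as the same as the reported ones and 27 as moved. Values classed as the same could still differ. The negative share at Wt1, 57.9% as reported, was 75% with 5 kb and 37.5% with an absolute score of at least 100. The Wt1 regions numbered 28 with 100 kb against 19, and the member regions 22 with a width of at least 100 bp against 33. With 5 kb in place of 50 kb on both sides, the member regions numbered 12 (83.3% negative), the members with a region 5, the Wt1 regions 8 and the background share 35.1%. In the gene body only, they numbered 10 (90% negative), 5, 6 (83.3% negative) and 28.9%, with 10 Wt1-linked regulators, 2 uroplakin and keratin genes and 4 blood cell genes. With 100 kb, the member regions numbered 57, the background share was 81.2% and 12 blood cell genes had a region. With an absolute score of at least 100, there were 9 member regions (44.4% negative), 2 members, 8 Wt1 regions and a background share of 24.8%, and the further mesothelial, uroplakin and keratin, and blood cell genes with a region numbered 8, 3 and 3. With regions at least 100 bp wide, 5 members had a region and the background share was 53.6%. Requiring whole containment moved none of the 12. Fewer or more regions enter each window by construction; for the shares of negative regions the cause was not tested. The largest score, 463 at Wt1, was the same under all 6 alternatives. No paired analysis was possible because there was 1 library per group and the result comes from no test. Unknown depth and the missing replicates limit every value.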
